A study of Vitis vinifera with 4 samples.

Results

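The regions described are the 5294 MYBPA1 binding events placed on chr06, chr08 and chr13 of the grapevine genome, out of 30318 events in the whole list. The rule for an event was its chromosome name and used no measured value of it. Chr06 held 1666 events, chr08 held 1899 and chr13 held 1729, and the 16 other numbered chromosomes held 24542. Sequence not placed on a chromosome, listed as chr00, was not used in comparisons. Its events did count in ranks and signal cutoffs taken over the whole list. The study was a DAP-seq experiment: a transcription factor with an affinity tag, produced in a cell-free lysate, was incubated with naked genomic DNA, and the fragments it kept were sequenced. It had 2 libraries of HALO-tagged MYBPA1 (gene Vitvi15g00938) and 2 libraries of pIX-HALO, the tag with no transcription factor. All 4 used leaf DNA of cultivar Pinot Noir, clone PN-94, with protein from rabbit reticulocyte lysate. Only 1 event list, for MYBPA1, was examined. It has no value per library, so spread between replicates cannot be given for any result, and the pIX-HALO background at a site cannot be printed.

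MYBPA1 is a MYB transcription factor that activates genes of proanthocyanidin (condensed tannin) synthesis in grape, among them genes for leucoanthocyanidin reductase and anthocyanidin reductase, the enzymes that make the catechin and epicatechin units of tannins. The grapevine genome keeps traces of an ancient triplication shared by the core eudicots, and many of its chromosome blocks occur in related sets. Chr06, chr08 and chr13 form one such set. Since DAP-seq DNA carries no chromatin, an event marks DNA that the protein can hold in the tube and not occupancy in a leaf cell. The genome build of the coordinates is not given in the sources used here, so neither sequences nor genes are assigned to the events.

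Each event is a stretch of 201 bp, and its middle base was taken as its centre. The span of a chromosome is the distance from its first to its last event centre. The signal value is the authors' measure of an event's strength. Its scaling is not stated, and the depth behind it is unknown. All intervals are 95% intervals that treat events as independent and cover counting error only. The counts in windows of 1 Mb were more uneven than that. Their variance was 5.28 times their mean on chr08, 9.37 on chr06 and 12.5 on chr13. The intervals of densities and of their ratios are therefore too narrow. A close neighbour is counted for both events of a pair. Intervals of shares with a close neighbour, and of their ratios, are thus too narrow as well. Those for signals of events very close to another can be affected in the same way.

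The first comparison asked whether the 3 related chromosomes carry events at the same density. In this list they did not, as far as counting error alone can tell. Chr08 had 84.2 events per Mb of span (exact Poisson interval 80.5 to 88.1), chr06 had 73.8 (70.3 to 77.4) and chr13 had 59.5 (56.8 to 62.4), and these intervals do not overlap. Chr08 had 1.42 times the density of chr13 (exact interval of the ratio 1.33 to 1.51) and 1.14 times that of chr06 (1.07 to 1.22), and chr06 had 1.24 times that of chr13 (1.16 to 1.33). Among the 19 numbered chromosomes chr08 ranked 1, chr06 ranked 5 and chr13 ranked 14, so the set is spread over much of the genome's range.

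Together the 3 chromosomes had 71.4 events per Mb (69.5 to 73.3), against 64.0 (63.2 to 64.8) on the 16 others, a ratio of 1.12 (1.08 to 1.15). The others ran from 49.1 on chr09 to 76.6 on chr17. Chr08 lay above all 16, at 1.32 times their joint density (1.26 to 1.38), and chr06 was at 1.15 times (1.10 to 1.21). Chr13 was at 0.930 times (0.885 to 0.976), a difference that was not beyond counting error with events of −log10 q of at least 5 alone (0.977, 0.917 to 1.04) or with the stronger 50% of events (0.949, 0.885 to 1.02). The joint excess thus came from chr08 and chr06 and not from chr13. The set held 17.7% of the events on numbered chromosomes and 16.2% of their span.

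**Figure D1:**
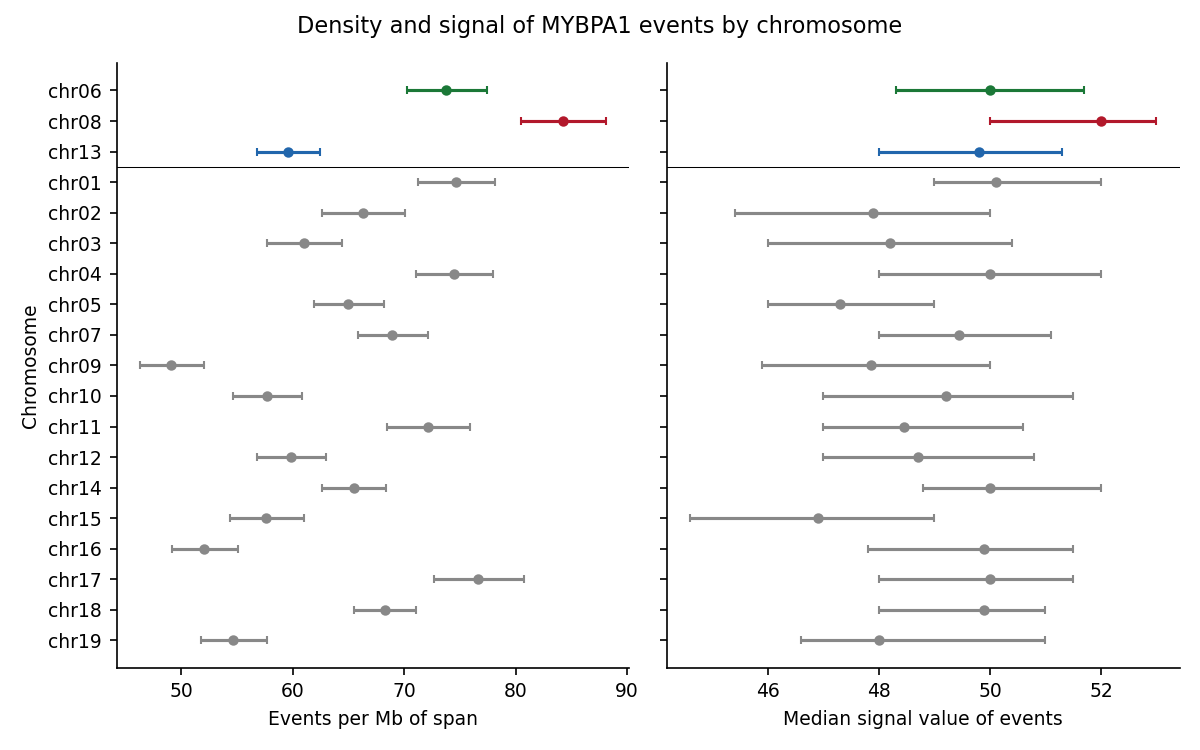
Events per Mb of span (left) and median signal value (right) for chr06, chr08 and chr13 (coloured, above the line) and the 16 other numbered chromosomes (grey). Points are values, bars are 95% intervals for counting error, and axes do not start at 0. Chr08 is at 84.2 events per Mb, chr06 at 73.8 and chr13 at 59.5, while the medians of signal differ little.

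The difference between chr06 and chr13 was not in the typical distance between neighbours. The median gap between neighbouring event centres was 7017 bp on chr06 (order-statistic interval 6506 to 7646) and 7042 bp on chr13 (6356 to 7533). On chr08 it was 6240 bp (5639 to 6736), against 7168 bp (6996 to 7351) on the 16 others, and chr08 had the shortest median of all 19. The chromosomes parted at long gaps. The 99th percentile of gap length was 86.8 kb on chr06, 74.2 kb on chr08 and 164 kb on chr13, against 128 kb on the 16 others.

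Long gaps took up unequal parts of the 3 chromosomes. Gaps over 50 kb numbered 98 on chr13 and covered 42.3% of its span, whereas 59 such gaps covered 27.5% of chr06 and 55 covered 21.1% of chr08. On the 16 others they covered 36.8%, with single chromosomes from 25.2% on chr17 to 50.3% on chr09. The share on chr08 was the smallest of the 19. Gaps over 200 kb numbered 14 on chr13, 4 on chr06 and 1 on chr08. With those gaps taken out of every chromosome's span, an alternative chosen after the gaps had been seen, chr13 had 1.03 times the density of the 16 others (0.982 to 1.08). Such gaps made up 18.9% of the span of chr13 and 10.03% of that of the 16 others, so taking them out raises this ratio by construction. Chr08 over chr13 came to 1.19 (1.12 to 1.27) and chr06 over chr13 to 1.11 (1.04 to 1.19) in the same setting.

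**Figure D2:**
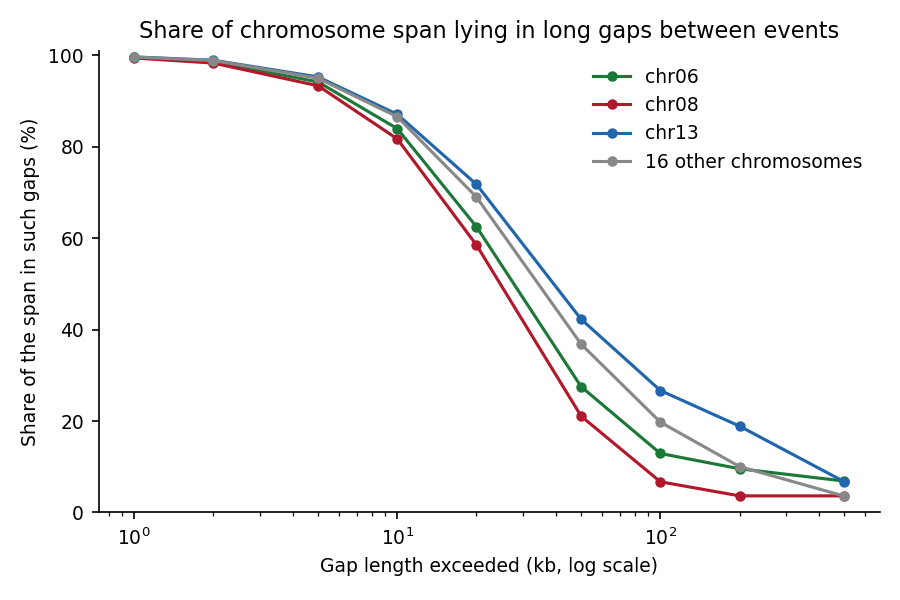
Share of the chromosome span (%) lying in gaps between neighbouring events longer than the length on the horizontal axis (kb, log scale). Lines show chr06, chr08, chr13 and the 16 other numbered chromosomes together. At 50 kb the curves stand at 27.5% for chr06, 21.1% for chr08, 42.3% for chr13 and 36.8% for the others.

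The emptiest stretches were long and nearly free of listed events. Why they held so few was not tested, and an empty stretch is not shown to be DNA that the protein cannot hold. On chr06 the longest gap ran from 9889415 to 10840750 (951 kb), and it was part of a stretch from 9525729 to 11225771 (1700.0 kb) that held 4 events, with signals of 27 to 82.9. The next gap on chr06 ran from 16761855 to 17359995 (598 kb). On chr08 the longest gap was 817 kb, from 6157664 to 6974434, and the next was only 131 kb, from 8274160 to 8405442. Each gap was part of a longer stretch, 1 from 6039360 to 6974434 (935 kb) with 2 events and 1 from 8274160 to 8632761 (359 kb) with 4. Chr08 therefore had 1 large empty stretch, and its next was much shorter.

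Chr13 had several. Its longest gap ran from 23542988 to 24373424 (830.4 kb), and the stretch from 23542988 to 24691465 (1148 kb) held 1 event. The next gap ran from 17542615 to 18121905 (579 kb). Another stretch, from 19085779 to 20310869 (1225 kb), held 12 events with signals of 25 to 235.5. A further one, from 13617077 to 14315900 (699 kb), held 6 events, 1 of them with a signal of 430, so strong events occurred in sparse stretches as well. Stretches are gaps over 100 kb joined where at most 5 events lay between them, and were named after their values had been seen.

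The next comparison was of position along each chromosome, and the 3 differed in it. On chr13 the first 33.3% of the span held 47.9% of the events (Wilson interval 45.6 to 50.3%), 2.07 times the number in the middle part (1.84 to 2.34) and 1.66 times that in the last (1.48 to 1.86). On chr06 the first part held 41.3%, the middle 25.6% and the last 33.1%. Chr08 ran the other way, with 26.9% in the first part (24.9 to 28.9%), 36.3% in the middle and 36.9% in the last. On the 16 others the first part held a median of 42.3% (single chromosomes from 20.6 to 50.6%) and the middle part a median of 26.2% (single chromosomes from 18.7 to 36.7%). The last part held a median of 30.0% on those 16. Chr06 and chr13 followed the order of the 3 medians, and chr08 did not. Neither did chr03, chr04, chr10, chr14, chr15, chr16 and chr17. On chr15 the shares also rose along the span (20.6, 34.7 and 44.7%), so a low first part was not particular to chr08.

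In density, the first part of the span had 91.4 events per Mb on chr06 (84.7 to 98.5), 67.9 on chr08 (62.1 to 74.0) and 85.6 on chr13 (79.9 to 91.7). Chr13 was thus close to chr06 there and above chr08. The middle part had 56.6 on chr06 (51.3 to 62.2), 91.7 on chr08 (85.0 to 98.8) and 41.3 on chr13 (37.4 to 45.6). The last part had 73.3 on chr06 (67.3 to 79.7), 93.2 on chr08 (86.4 to 100.3) and 51.6 on chr13 (47.2 to 56.4). The order of the 3 chromosomes over their whole spans therefore held in the middle and last parts and not in the first.

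Bins of 5% of the span placed the difference more closely. From 40% of its span onward chr08 kept 80.7 to 108 events per Mb in all 12 bins, and 11 of these 12 lay above the upper quartile of the 16 others at the same relative position. In the first 40% of its span 1 bin did. On chr06 8 of 20 bins lay above that quartile and 2 below the lower one, with a low of 5.31 events per Mb just before the middle of the chromosome. On chr13 3 bins lay above it, all within the first 40%, and 4 lay below the lower quartile.

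**Figure D3:**
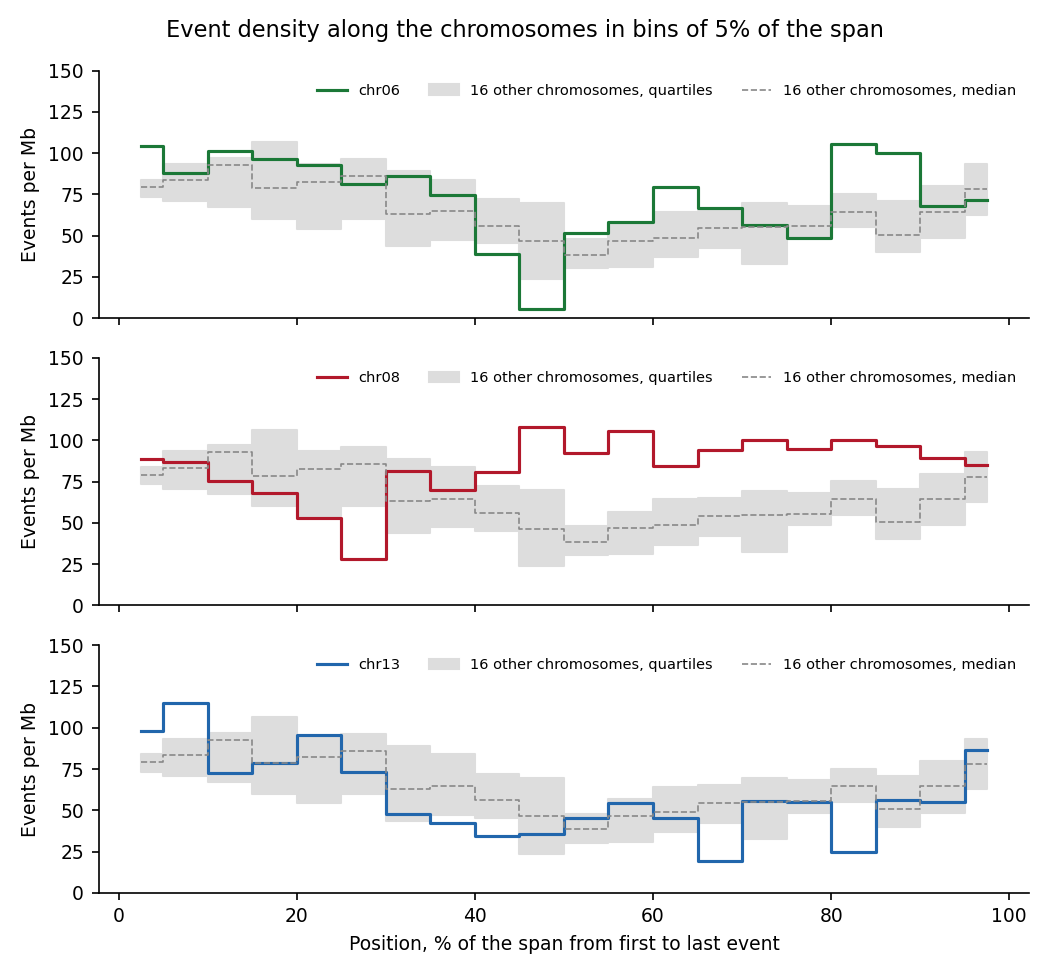
Events per Mb in bins of 5% of the span along chr06, chr08 and chr13 (coloured steps), with the quartiles (grey band) and the median (dashed) of the 16 other numbered chromosomes at the same relative position. Chr08 stays between 80.7 and 108 from 40% of its span onward, while chr13 reaches 115 near its start and has its low of 19.3 in the later part.

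Counted in windows of 1 Mb, chr08 was the most even of the 3. The variance of the counts divided by their mean was 5.28 on chr08, 9.37 on chr06 and 12.5 on chr13. Over the pooled windows of the 16 others it was 11.1, which includes differences between chromosomes. Single chromosomes among them ran from 3.92 on chr04 to 15.6 on chr19, so all 3 values lay inside that range. The 22 full windows of chr08 held a median of 89.5 events (quartiles 81.75 and 97), and 11 of them held 90 or more. The 22 windows of chr06 had a median of 78 (53.75 and 93.5), and the 29 of chr13 had 56 (40 and 80). The windows of the 16 others had a median of 64.

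The richest window of chr13 lay from 1000001 to 2000000 with 116 events, followed by the next megabase with 110. On chr08 the richest ran from 10000001 to 11000000 with 114 events, rank 6 of all windows, followed by 18000001 to 19000000 with 103. On chr06 they were 3000001 to 4000000 with 109 and 18000001 to 19000000 with 104. The 3 chromosomes therefore had peak windows of similar height and differed in how many windows were rich. The poorest windows were 10000001 to 11000000 on chr06 with 3 events, 6000001 to 7000000 on chr08 with 15 and 17000001 to 18000000 on chr13 with 8. The next poorest held 44 on chr06 (12000001 to 13000000), 58 on chr08 (3000001 to 4000000) and 16 on chr13 (19000001 to 20000000).

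Long runs of windows made up these contrasts. The first 9 windows of chr13 held 60 to 116 events each, and the 7 that followed, up to 16000000, held only 33 to 46. From there to 29000000 the 13 windows ranged from 8 to 81. On chr08 the first 7 windows held 15 to 90 events, with a median of 64, and the other 15 held 63 to 114, with a median of 94. The borders of these runs were set after the counts had been seen.

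At a finer scale, the window of 100 kb with most events among all 4571 of the numbered chromosomes lay on chr13, from 7100001 to 7200000. It held 26 events with signals of 22.3 to 264.3 and a median of 46, and 18 of them had a neighbour within 1000 bp. On chr08 the window from 9400001 to 9500000 held 22 events, rank 6, with a median signal of 73.15 and a highest of 536.6. On chr06 the richest ran from 1000001 to 1100000 with 20 events. Windows of 100 kb without an event made up 17.2% of chr13, 9.29% of chr06 and 3.56% of chr08, against 9.97% on the 16 others. Single chromosomes among those ran from 2.99% on chr11 to 20.1% on chr09. Of the 3, the chromosome with the richest small window was also the one with the most empty ones.

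Close neighbours were then compared. The share of events with another centre within 1000 bp was 31.4% on chr08 (597 events, Wilson interval 29.4 to 33.6%), 27.3% on chr06 (454 events, 25.2 to 29.4%) and 28.3% on chr13 (489 events, 26.2 to 30.5%), beside 28.3% over all numbered chromosomes. Chr08 had the highest share of the 19, at 1.12 times that of the 16 others (1.04 to 1.20). This excess was not beyond counting error under 4 of 5 alternatives. These were events of −log10 q of at least 5 alone (1.05, 0.941 to 1.17), events within 200 bp of a stronger one left out (1.09, 0.994 to 1.20), and distances of 500 bp (1.09, 0.9997 to 1.20) and 5000 bp (1.03, 0.999 to 1.07). With the stronger 50% of events it was 1.18 (1.05 to 1.32). Density moved with it on chr08, and its part in the share was not tested. Chr06 had a ratio of 0.970 (0.894 to 1.05) and chr13 one of 1.01 (0.931 to 1.09), so chr06, with the fifth highest density, showed no excess of close neighbours beyond counting error.

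Overlapping neighbours, with centres within 200 bp, made up 12% of events on chr08 (10.6 to 13.5%), 9.60% on chr06 (8.28 to 11.1%) and 10.5% on chr13 (9.17 to 12.1%), beside 10.6% over all numbered chromosomes. Chr08 ranked 1 and chr06 ranked 17 of 19, but the intervals of all 3 overlap. Gaps of 100 to under 150 bp numbered 57 on chr08, or 3.0% of its gaps (2.33 to 3.87%), against 2.27% on the 16 others (2.09 to 2.47%). They numbered 31 on chr06 (1.86%, 1.31 to 2.63%) and 33 on chr13 (1.91%, 1.36 to 2.67%). Gaps of 50 to under 100 bp took like shares throughout, 1.37% on chr08, 1.44% on chr06, 1.39% on chr13 and 1.35% on the 16 others. With gaps under 400 bp sorted into classes of 10 bp, chr08 had its fullest class at 120 to 129 bp (19 gaps), which also led on the 16 others. The fullest was 90 to 99 bp on chr06 (12 gaps) and 130 to 139 bp on chr13 (10 gaps), counts too small to place a class firmly.

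The signals within such pairs were compared. In the 288 pairs of neighbours at most 200 bp apart, the signal of the stronger divided by that of the weaker had a median of 1.76 (quartiles 1.34 and 2.83), against 1.71 (1.30 and 2.56) in 1315 pairs of the 16 others. The medians were 1.80 on chr06, 1.79 on chr08 and 1.67 on chr13. The most unequal pair of all numbered chromosomes, with a ratio of 24.9, was on chr13. Pairs with a ratio of at least 5 numbered 8 of 81 on chr06 (9.88%), 6 of 115 on chr08 (5.22%) and 9 of 92 on chr13 (9.78%), against 79 of 1315 on the 16 others (6.01%).

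Centres no more than 1000 bp apart were joined into groups. Those of at least 3 events numbered 28 on chr06, 30 on chr08 and 25 on chr13. Per Mb these were 1.24 on chr06 (0.824 to 1.79), 1.33 on chr08 (0.898 to 1.90) and 0.861 on chr13 (0.557 to 1.27), against 1.05 (0.951 to 1.16) on the 16 others, and the intervals overlap. Of the events, 5.16% on chr06, 5.32% on chr08 and 4.57% on chr13 stood in such groups, beside 5.24% over all numbered chromosomes. With each group counted once, chr08 still had 1.29 times the density of the 16 others (1.22 to 1.36) and chr06 1.16 times (1.10 to 1.22). Their higher density was therefore also present in groups taken as single sites.

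The group with most events in the set lay on chr08 from 12830494 to 12832438, with 6 events in 1945 bp. Their signals, in order along the chromosome, were 57.5, 157.6, 46, 95.2, 62.6 and 827. The last and strongest stood 941 bp from the others, which lay 128 to 317 bp apart. The next group on chr08, from 6981318 to 6983440, held 5 events of 35.4 to 56 and began within 10 kb of the end of the chromosome's longest gap. On chr06 the largest group ran from 14261055 to 14263592, with 5 events of 33 to 76. The next on chr06, from 3106175 to 3106870, had an event of 410.8 between neighbours of 48.8 and 46.3.

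On chr13 no group exceeded 4 events. The group from 7105523 to 7106926 had signals of 151, 35, 88.1 and 100.9 and lay in the richest window of 100 kb. The group from 1156678 to 1158853 had signals of 133, 79, 42 and 53.9 and lay in the richest window of 1 Mb. In both, the strongest event was the first along the chromosome, whereas in the largest group of chr08 it was the last.

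Signal values were compared next. The median signal was 52 on chr08 (order-statistic interval 50 to 53), 50 on chr06 (48.3 to 51.7) and 49.8 on chr13 (48 to 51.3), against 49 on the 16 others (48.8 to 49.5). Chr08 had the highest median of the 19, at 1.06 times that of the 16 others (1.02 to 1.08). The weakest listed event had a signal of 26 on chr08 and 24.1 on chr06, but 22 on chr13 and at most 23.3 on the 16 others. What this higher start adds to the medians was not tested. With events of −log10 q of at least 5 alone the ratio of chr08 to the 16 others was 1.04 (1.0 to 1.07), no longer beyond counting error. The medians of the 16 others ran from 46.9 on chr15 to 50.1 on chr01. The intervals of chr06, chr08 and chr13 overlap. The ratio of the 3 together to the 16 others was 1.03 (1.01 to 1.05), and with that filter it was 1.0 (0.986 to 1.03).

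Split by signal, the extra density of chr08 and chr06 was not found among the weakest events. In the lowest quartile of signal (22 to 35.6), chr08 had 17.4 events per Mb and chr06 had 15.7, against 16.3 on the 16 others, ratios of 1.06 (0.959 to 1.18) and 0.962 (0.862 to 1.07). The weakest event had a signal of 26 on chr08, 24.1 on chr06 and 22 on chr13. On the 16 others this minimum ran from 22 to 23.3 (chr04). The lowest quartile was thus cut off higher on chr08 and chr06, and what this adds to their low ratios and shares was not tested. In the next quartile (35.7 to 49) the ratios were 1.36 (1.24 to 1.49) for chr08 and 1.28 (1.16 to 1.40) for chr06. They were 1.41 (1.28 to 1.54) and 1.24 (1.13 to 1.37) from 49.1 to 78.1, and 1.44 (1.32 to 1.58) and 1.13 (1.02 to 1.25) from 78.2 upward. Chr13 lay between 0.908 and 0.953 in all 4 quartiles, each interval including 1.

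The lowest quartile held 20.6% of chr08 events (18.9 to 22.5%) and 21.3% of chr06 events (19.4 to 23.3%), the lowest 2 shares of the 19 chromosomes. It held 25.1% of chr13 events (23.1 to 27.2%) and 25.5% of those on the 16 others (25 to 26.1%), where chromosomes ran from 22.4% on chr04 to 30.3% on chr15. As a ratio to the 16 others, the share was 0.809 (0.738 to 0.885) on chr08, 0.835 (0.759 to 0.918) on chr06 and 0.983 (0.904 to 1.07) on chr13. The quartile borders were taken over the numbered chromosomes, and this split was added after the other results had been seen.

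**Figure D4:**
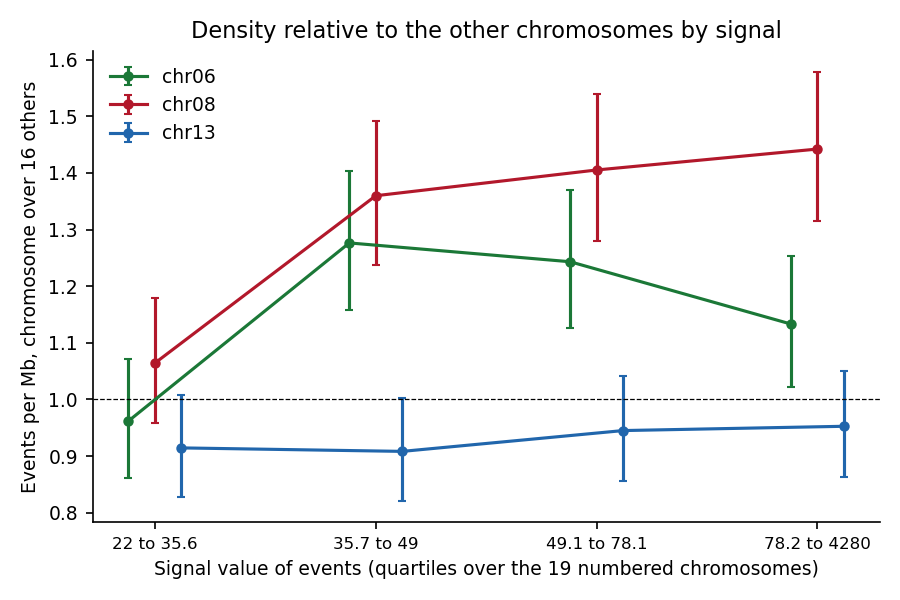
Events per Mb on chr06, chr08 and chr13 divided by that on the 16 other numbered chromosomes, within each quartile of signal value. Bars are 95% exact intervals of the ratio and the dashed line marks equal density. In the lowest quartile chr08 is at 1.06 and chr06 at 0.962, and in the next at 1.36 and 1.28, while chr13 stays between 0.908 and 0.953.

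The q value gave another picture. Events with −log10 q of at least 5 made up 61.1% on chr13 (58.8 to 63.4%), 59.9% on chr08 (57.7 to 62.1%) and 58.5% on chr06 (56.1 to 60.8%), beside 58.5% over all numbered chromosomes. Chr13 ranked 1, chr08 ranked 2 and chr06 ranked 9 of 19, with overlapping intervals. Chr06 thus had few events of low signal but a share of events past this q value like that of all numbered chromosomes. At like signal the p values were similar. Among events of signal 50 to under 51, the median −log10 p was 6.86 on chr06 (24 events), 6.405 on chr08 (30) and 6.86 on chr13 (27), against 6.64 on the 16 others (320), and single events ran from 2.19 to 12.3 over the 3 chromosomes.

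Signal also varied along the chromosomes. On chr08 the median was 47.9 in the first 33.3% of the span (46 to 50), 55 in the middle (52.4 to 57.5) and 51.5 in the last (48.8 to 55.2). The part of chr08 with fewest events was thus also the one with the lowest median signal. On chr06 the medians were 50.35, 48.15 and 50.75, and on chr13 they were 50, 49 and 50. The middle part of both likewise had the fewest events and the lowest median, but these medians lay close together. They did so on chr13 although its first part held 2.07 times the events of the middle. Over 1 Mb windows holding at least 20 events, the correlation of count with median signal was 0.349 (Spearman) and 0.325 (Pearson) over 21 windows of chr06. It was 0.263 and 0.337 over 21 windows of chr08 and 0.137 and 0.117 over 27 windows of chr13. These are descriptions, since the windows share 1 list and its depth.

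Chr08 had windows at both ends of the scale. The window from 9000001 to 10000000 had a median signal of 68 (52 to 83, 81 events), rank 2 of 423 windows with 20 or more events, and that from 12000001 to 13000000 had 62.8 (54.6 to 71), rank 7. The window from 4000001 to 5000000 had 38 (34.9 to 47, 64 events), rank 413. On chr13 the first megabase had 60 (50.3 to 71.9), rank 10, and the window from 20000001 to 21000000 had 39 (34.8 to 48.1), rank 408. On chr06 all 21 windows lay between 46 and 55.9. Windows in this paragraph were picked as extremes after their values had been seen.

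Events very close to another had higher signals than remote ones. Those within 100 bp of another had a median signal of 80.75 on chr06 (63.3 to 99.3, 56 events), 85.25 on chr08 (52.8 to 120.9, 58 events) and 102 on chr13 (81.8 to 156, 56 events). Those over 20000 bp from any other had 49.9 on chr06 (42 to 55), 45.7 on chr08 (42 to 54) and 46 on chr13 (38 to 54). On chr06 and chr13 the intervals of the near and remote events do not overlap, and on chr08 they overlap narrowly. On the 16 others the medians were 87.8 (80.5 to 94.3) near and 42 (41 to 44) far.

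Among the numbered chromosomes, chr08 held the most events in the upper tail of signal. The strongest 1% of the whole list was 303 events with a signal of 392 or more. Of these, 272 lay on numbered chromosomes and the rest on chr00. The 272 included 29 on chr08 (1.53% of its events, Wilson interval 1.07 to 2.18%), 18 on chr06 (1.08%, 0.685 to 1.70%) and 16 on chr13 (0.925%, 0.570 to 1.50%), beside 0.912% over all numbered chromosomes. Of the 16 others, chr14 had the most with 22. Relative to the 16 others the share was 1.79 times on chr08 (1.22 to 2.64), 1.27 times on chr06 (0.786 to 2.05) and 1.09 times on chr13 (0.655 to 1.80). The ratio on chr08 was 1.18 (0.970 to 1.43) for the strongest 5% and 1.02 (0.889 to 1.18) for the strongest 10%, so its excess rested on the uppermost events. No interval is adjusted for chr08 being the highest of 19.

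These 29 events carried 12.1% of the summed signal of chr08, compared with 7.81% for those of chr06, 8.28% for those of chr13 and 7.13% for those of the 16 others. They were spread over 17 windows of 1 Mb and 27 of 100 kb, at most 2 in a window of 100 kb. The window from 20000001 to 21000000 held 5 of them. Of the 29, 17 had a neighbour within 1000 bp (58.6%), as had 7 of 18 on chr06 (38.9%) and 7 of 16 on chr13 (43.75%), against 48.3% of the 209 on the 16 others.

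The strongest event of the set was on chr13, from 26112309 to 26112509, with a signal of 1764.5, rank 5 of the list. The event 137 bp before it, from 26112172 to 26112372, had 1068.5, rank 20 of the list, so the 2 strongest events of chr13 overlapped. The next on chr13 were 776 (26621550 to 26621750), 770 (27646830 to 27647030) and 700 (16336078 to 16336278). The upper 4 lay within the last 3 Mb of the span. None of the 5 lay in the event-rich first part, which held 3 of the 16 chr13 events in the top 1%.

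On chr08 the event from 15177604 to 15177804 had a signal of 1730.5, rank 6. It was followed by 1083.6 (17810594 to 17810794), 883.3 (89903 to 90103), 852 (8870186 to 8870386) and 850.1 (8995882 to 8996082). The event at 89903 had a strong neighbour, of signal 505.7, at 82 bp. The nearest event to the first had a signal of 29.5 at 368 bp, and the nearest to the second had 50.4 at 411 bp, below the chromosome's median of 52. The strongest sites of chr08 thus had nearest events both far above and below that median.

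Chr06 had no event above 774, less than 50% of the highest on chr08 or chr13. That event lay from 15723567 to 15723767. Signals of 766.7 (12978366 to 12978566), 687 (859477 to 859677), 633 (14835263 to 14835463) and 597.9 (20263861 to 20264061) followed. The event at 12978366 had a neighbour of signal 193.3 at a distance of only 31 bp, and the nearest events to the other 4 lay 1244 to 3438 bp away. The −log10 p of the 5 ran from 156 to 224. On chr08 and chr13 the strongest event carried the ceiling value of the list, so its p is given only as a bound.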

How the data were processed

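The members and all comparisons were chosen with earlier results of these data known. The series has 4 DAP-seq libraries, 2 of MYBPA1 and 2 of pIX-HALO, grouped by the protein named in the labels. Tools named in the submitters' processing notes are Bowtie2 2.0 and fastp 0.21.0. The name of the deposited list gives GEM as the event caller. Not given in the sources used here are its version and settings, the genome build, the control and the joining of libraries. Each event was deposited with a display score (not used), a signal value of at least 22, a −log10 p-value and a −log10 q-value of at least 2.0, with decimal commas that were read as points. Library depth is unknown.

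Densities carry exact Poisson intervals and their ratios exact conditional binomial intervals. Shares carry Wilson intervals, ratios of shares intervals on the log scale, and medians binomial order-statistic intervals. Ratios of medians take the median of the 16 others as fixed. No p-value was computed, since the list has no replicates. Positions are 1-based. The regions named, by the same rule on each chromosome, were the 5 strongest events, the 2 richest and 2 poorest full windows of 1 Mb, the 2 longest gaps and the 2 largest groups, with ties among groups broken by summed signal. Others were named after their values were seen. Alternatives were −log10 q of at least 5, the stronger 50% of events, dropping any event with a stronger one within 200 bp, length from base 1, distances of 500 and 5000 bp, the strongest 5 and 10%, and, added later, spans without gaps over 200 kb and groups counted once. The interval of a density ratio, the interval of a median and the dropping of events within 200 bp were checked on simulated data. The simulated counts and signals were independent, unlike the uneven counts of this list. The other intervals and filters were not checked in this way. Computation used Python 3.11.15 with scipy 1.17.1, numpy 2.4.6 and pandas 2.3.3, and plotting matplotlib 3.10.9.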

Additional observations from a re-analysis of the deposited data

How the results depend on the processing

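Of 86 values recomputed under alternatives, 71 stayed inside the interval of the value reported. Spans without gaps over 200 kb turned chr13 over the 16 others in density to 1.03, from below to above 1 with an interval that includes 1, and moved chr08 over the 16 others to 1.23, chr08 over chr13 to 1.19 and chr06 over chr13 to 1.11. With the stronger 50% of events, density over the 16 others was 1.42 for chr08 and 1.17 for the 3 together. With −log10 q of at least 5, chr13 over the 16 others in density was 0.977 with an interval that includes 1, the share of close neighbours was 0.888 times that of the 16 others on chr06 and 0.980 times for the 3 together, and the median signal of the 3 was 1.0 times that of the 16 others. With a distance of 5000 bp the share on chr08 was 1.03 times, with an interval that includes 1. For the strongest 5% and 10% of events the ratio was 1.18 and 1.02 on chr08 and 1.05 and 1.03 for the 3 together. The causes were not tested.

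Chr08 stayed densest of the 3 under all 6 density alternatives (1.07 to 1.20 times chr06 and 1.19 to 1.50 times chr13). Replicates could not be left out in turn. No paired analysis was possible because values are given per event and not per library. Which weaker sites were missed cannot be said at unknown depth.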

Other observations

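High signal went with a low p on all 3 chromosomes, with few exceptions. Of 940 events on chr06, chr08 and chr13 with a signal of at least 100, 1 had a −log10 q under 5. It lay on chr08 from 9824581 to 9824781, with a signal of 110, a −log10 p of 3.66 and no other event within 6484 bp. On the 16 others 1 of 4189 such events had a −log10 q under 5.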
